A study of Mus musculus with 10 samples.

Results

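Semaphorins, plexins and neuropilins form a family of guidance signals and their receptors, and their RNA was followed across the 10 libraries of MAF9 cells in this series. The family was taken as every gene of the count table whose symbol begins with Sema or Plxn followed by a letter or digit, together with Nrp1 and Nrp2, which gave 32 of 24015 genes. The family was chosen by the measured values of Nrp1, which was among the strongest rises with iBET against DMSO, so all iBET values of these genes are given as a description without a test. MAF9 cells were made by introducing the leukemia fusion MLL-AF9 into C57BL/6 mouse bone marrow, and all groups carried this fusion and grew in IMDM with 15% FBS and 10 ng/ml IL-3. For 4 days the cells received MM-401, which blocks the binding of MLL1 to WDR5, EPZ5676 (EPZ in the labels), an inhibitor of the methyltransferase DOT1L, MI-2-2 (MI in the labels), an inhibitor of MENIN, or iBET, each at its half-maximal growth-inhibiting dose, or DMSO as the control. Each of the 5 conditions had 2 libraries. The paper speaks of duplicated biological samples. The labels do not state whether these came from separate cultures or animals, so that p-values measure only the spread between these libraries.

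Semaphorins are ligands that steer the shape, adhesion and migration of cells. Class 3 members are secreted, those of classes 4 to 6 span the membrane, and Sema7a is held on the surface by a lipid anchor. Plexins are the receptors, with an intracellular domain that switches off small GTPases of the Ras family, while neuropilins lack such a domain and serve as coreceptors for class 3 semaphorins and for VEGF. In blood cells, class 4 semaphorins, Sema7a and several plexins act in contacts and migration of lymphoid and myeloid cells.

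Library totals lay between 20394762 and 29473127 reads. The second DMSO library stood apart from the other 9. It held 3630 reads of 4 Y-linked genes against 0 to 2 in each other library, and Xist was at 4.76 CPM against 928 to 3051 CPM. Y-linked reads with almost no Xist mark male cells, so this library came from other cells than the other 9. Comparisons against DMSO that include this library hold that difference together with the treatment. Of the 19 family members that passed the filter on low counts, 8 differed by more than 2-fold between both DMSO libraries, against 0 to 3 in the other conditions (all genes: 19.3% in DMSO and 3.42% to 6.07% elsewhere). The counts of members that passed against DMSO, and the fold changes that moved by over 1.5 times, are therefore given with and without this library. Markers of myeloid progenitors were detected in the table (9 of 9 genes), while Emcn (endothelial), Col1a2, Col3a1, Dcn and Lum (stromal), Cd3e and Cd8a (T cell), Ms4a1 (B cell), Fcer1a and Prss34 (mast cell) and Hbb-b1 (erythroid) had no read in any library. Other members of these lists were detected. Their highest reads in a library were 912 for Pecam1, 402 for Col1a1, 377 for Mcpt8, 78 for Pf4, 55 for Cd3d and 32 for Cd79a.

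Promoters of the 4 members that the results below turn on most, the ligands Sema7a and Sema4f, the receptor Plxnc1 and the coreceptor Nrp1, are shown as the 250 bases before the RefSeq start site (GRCm38.p6), 5′ to 3′ on the strand of the gene. Capitals mark matches, on either strand, to GAGGAA (the core of the box bound by the myeloid factor PU.1), to GGGCGG (GC box), to the box CCAAT, to the E-box CACGTG or to the TATA box TATAAA.
Sema7a: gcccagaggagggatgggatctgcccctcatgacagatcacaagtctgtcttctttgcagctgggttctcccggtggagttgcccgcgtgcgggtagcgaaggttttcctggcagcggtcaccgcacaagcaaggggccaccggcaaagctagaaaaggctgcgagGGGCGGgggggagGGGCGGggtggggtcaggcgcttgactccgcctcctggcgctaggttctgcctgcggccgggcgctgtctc
Sema4f: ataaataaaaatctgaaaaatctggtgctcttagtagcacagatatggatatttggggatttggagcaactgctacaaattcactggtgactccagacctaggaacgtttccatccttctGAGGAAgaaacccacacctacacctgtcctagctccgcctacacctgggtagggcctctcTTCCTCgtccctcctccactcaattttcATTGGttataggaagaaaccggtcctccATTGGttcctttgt
Plxnc1: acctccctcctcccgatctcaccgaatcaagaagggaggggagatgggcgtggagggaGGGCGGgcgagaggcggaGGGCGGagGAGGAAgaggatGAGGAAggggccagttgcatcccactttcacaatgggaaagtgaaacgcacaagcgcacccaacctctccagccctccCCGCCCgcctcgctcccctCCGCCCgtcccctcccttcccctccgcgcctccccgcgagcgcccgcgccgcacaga
Nrp1: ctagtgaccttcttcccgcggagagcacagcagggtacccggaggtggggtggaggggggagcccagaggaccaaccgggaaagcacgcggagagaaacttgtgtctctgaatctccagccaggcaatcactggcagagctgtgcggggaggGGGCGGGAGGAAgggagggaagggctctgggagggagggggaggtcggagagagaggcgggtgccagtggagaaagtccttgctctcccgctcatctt
The windows are chr9:57939862-57940111 (plus strand) for Sema7a, chr6:82939770-82940019 (minus strand) for Sema4f, chr10:94944846-94945095 (minus strand) for Plxnc1 and chr8:128358823-128359072 (plus strand) for Nrp1. Sema7a had 2 GC boxes, Plxnc1 had 4 GC boxes and 2 GAGGAA matches, Sema4f had 2 GAGGAA and 2 CCAAT matches, and Nrp1 had 1 GC box followed at once by 1 GAGGAA match. No E-box and no TATAAA was found in these 4 windows. Over 32851 promoter windows of the same length, 23.3% held GAGGAA, 32.7% a GC box, 33.8% CCAAT, 6.02% the E-box and 12.4% TATAAA. The GC content was 66.4% for Sema7a, 68.8% for Plxnc1 and 64.4% for Nrp1, above the median of 52.4% over all windows, and 46% for Sema4f, below it. A match is a description of the letters, and no binding was measured here.

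Of the 32 genes, 22 had at least 10 reads summed over the 10 libraries. Per kb of exon and scaled by library total (RPKM), Sema4a, a class 4 ligand known from contacts between T cells and dendritic cells, was the most abundant semaphorin in 10 of 10 libraries, with 67.6% to 81.8% of the summed semaphorin level. Its mean RPKM was 79.2 in DMSO, 96.2 in MM-401, 123 in EPZ5676, 134 in MI-2-2 and 59.9 in iBET. Behind Sema4a, the second place was held by Sema6b in both DMSO and both MM-401 libraries and by Sema4d in the 6 libraries of EPZ5676, MI-2-2 and iBET.

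Among the plexins, Plxnd1, a receptor for class 3 and class 4 semaphorins, was highest per length in 9 of 10 libraries. Plxnc1, the receptor of Sema7a, came first only in iBET replicate 2, with 45.5% of the summed plexin level against 40.3% for Plxnd1. Plxnd1 made up 73.5% to 91.9% of plexin level in DMSO and MM-401 and 46.1% to 60.6% in EPZ5676 and MI-2-2. Nrp2 exceeded Nrp1 per length in 10 of 10 libraries, but the ratio of Nrp2 to Nrp1 ran from 13.2 to 24.1 in DMSO and MM-401, from 1.65 to 3.63 in EPZ5676 and MI-2-2, and was 1.13 and 2.11 in iBET. Per kb of coding length, which leaves out the long untranslated ends of Nrp2, the ratio was larger in each library, from 2.94 in iBET replicate 1 to 62.7 in DMSO replicate 1. The highest gene of each family was unchanged in each library by this choice of length.

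**Figure D1:**
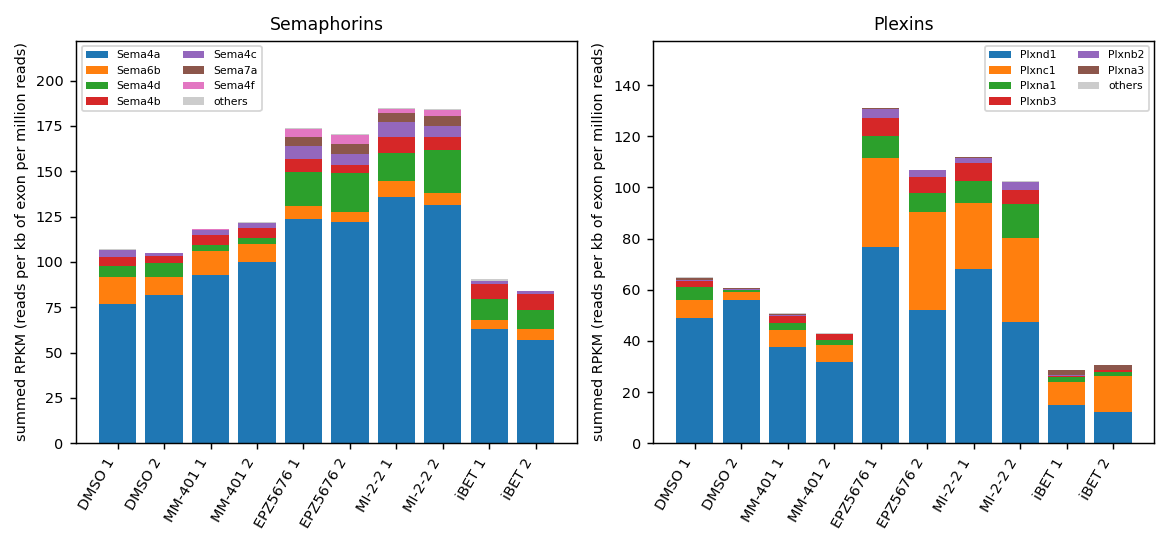
Stacked bars show the RPKM of semaphorins, left, and plexins, right, in each of the 10 libraries, with 1 colour for each gene and the remaining members in grey. Sema4a fills 67.6% to 81.8% of the semaphorin bars, and Plxnc1 takes a larger part of the plexin bars in EPZ5676, MI-2-2 and iBET than in DMSO and MM-401.

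The comparisons of EPZ5676 and MI-2-2 with MM-401 ask how these genes differ between inhibiting DOT1L or MENIN and blocking the binding of MLL1 to WDR5. The paper describes MENIN as a partner of both MLL1 and MLL-AF9, so the MI-2-2 comparison does not separate the fusion from wild-type MLL1. The paper also reports almost the same transcriptome changes for MENIN as for DOT1L inhibition. From this it argues that the effect of MENIN inhibition is skewed towards the fusion proteins. The fold changes of both comparisons rest on none of the libraries by which Nrp1 was chosen, although the spread was estimated over all 10 libraries. With EPZ5676, 11 of the 19 members tested passed the adjusted threshold of 0.05, of which 10 rose and 1 fell, against 33.3% of the 12971 genes tested, 16.7% rising and 16.6% falling. With MI-2-2, 10 members rose and 0 fell, against 35.7% of all genes, 18% rising. The median log2 fold change of the 19 members was 1.37 with EPZ5676 and 1.42 with MI-2-2, while that of all genes was 0.01 in each comparison. By role, 6 of 10 ligands, 3 of 7 receptors and 1 of 2 coreceptors rose with EPZ5676, and 5 ligands, 4 receptors and 1 coreceptor with MI-2-2. Both comparisons share the MM-401 libraries. Sema7a, Sema4f and Sema3g passed the filter on low counts only through their EPZ5676 and MI-2-2 libraries. They could thus enter these counts and medians, and those against DMSO below, only as higher. Sema4g passed it only through DMSO and MM-401 libraries and could enter only as lower. In such bulk samples, fewer cells of a type and less RNA per cell cannot be told apart.

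Other genes moved together with the same libraries. The summed level of the 5 neutrophil granule markers was 15658 to 21128 CPM in the EPZ5676 and MI-2-2 libraries and 80.2 to 1160 CPM in the other 6. All 6 macrophage markers in the table were detected, with a summed level of 361 to 726 CPM against 78.8 to 141 CPM, and the 9 progenitor genes summed to 2069 to 2850 CPM against 6140 to 10351 CPM in DMSO and MM-401 and 1615 to 2049 CPM in iBET. Much of that sum was Elane (598 to 1384 CPM in EPZ5676 and MI-2-2, 3282 to 4542 CPM in DMSO and MM-401) and Mpo (19.0 to 332 CPM against 418 to 4927 CPM). With iBET, Elane had 772 and 387 CPM and Mpo 15.1 and 16.6 CPM. Meis1 had 0.630 to 1.62 CPM against 35.5 to 91.9 CPM, and 52.7 and 58.3 CPM with iBET. Hoxa9 was highest with iBET (537 and 520 CPM), with 260 to 388.6 CPM in EPZ5676 and MI-2-2 and 388.3 to 482 CPM in DMSO and MM-401. Flt3 had 2.65 and 3.31 CPM with iBET, 0 reads in EPZ5676 and MI-2-2 and at most 1.42 CPM elsewhere. Cebpa had 167 and 130 CPM with iBET, 67.9 to 123 CPM in EPZ5676 and MI-2-2 and 108 to 156 CPM elsewhere. Ptprc went the other way (777 to 939 CPM against 390 to 500.4 CPM in the other 6 libraries). Kit, at 77.1 to 135 CPM in EPZ5676 and MI-2-2, was above MM-401 (53.5 and 74.7 CPM) and DMSO replicate 1 (49.7 CPM) and under DMSO replicate 2 (184 CPM). With iBET, Kit had 43.2 and 46.1 CPM. Of the stromal list, Col1a1 alone passed 1 CPM in any library, at 2.90 to 17.1 CPM in EPZ5676 and MI-2-2 and at most 0.776 CPM elsewhere. The endothelial list, of which 3 of 7 genes had at least 10 reads, summed to 7.09 to 47.6 CPM, mostly Pecam1, which myeloid cells also express. Summed B cell markers reached at most 1.09 CPM, T cell markers 1.87 CPM, megakaryocyte or erythroid markers 6.72 CPM and mast cell or basophil markers 16.5 CPM. Their part in the results was not tested.

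Sema7a showed the largest difference from MM-401. It had 355 and 438 reads with EPZ5676 and 387 and 582 with MI-2-2, but 3 and 2 with MM-401. Normalised for library composition (TMM), this was 17.2 and 20.6 CPM with EPZ5676, 16.8 and 21.3 CPM with MI-2-2, 0.127 and 0.084 CPM with MM-401, 0.662 and 0 CPM with DMSO, and 0.177 and 0 CPM with iBET. The gene was thus close to silent in 6 libraries and readily detected in the other 4. It rose by a log2 fold change of 7.42 ± 1.11 (SE; edgeR adjusted p = 0.00298) with EPZ5676 and by 7.43 ± 1.11 (adjusted p = 0.00289) with MI-2-2. These folds rest on 5 reads in the MM-401 group.

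Sema4f, a transmembrane ligand of class 4, had the same arrangement of high and low libraries. Its TMM-normalised level was 18.5 and 22.4 CPM with EPZ5676, 9.93 and 13.2 CPM with MI-2-2, 0.338 and 0.420 CPM with MM-401, and 0.389 and 0 CPM with DMSO. In iBET it had 0 reads in 1 library and 1 read in the other. Sema4f rose against MM-401 by 5.73 ± 0.77 (SE, log2; adjusted p = 0.00209) with EPZ5676 and by 4.91 ± 0.75 (adjusted p = 0.00307) with MI-2-2.

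Sema4d, or CD100, which signals through plexin B receptors and CD72, was abundant in each condition and lowest with MM-401. The libraries had 92.1 and 111 CPM with EPZ5676, 76.1 and 123 CPM with MI-2-2, 53.9 and 48.1 CPM with iBET, 26.9 and 35.6 CPM with DMSO, and 16.4 and 14.3 CPM with MM-401. No 2 of these groups overlapped except EPZ5676 and MI-2-2. Relative to MM-401, Sema4d rose by 2.73 ± 0.26 (adjusted p = 0.000763) with EPZ5676 and by 2.70 ± 0.26 (adjusted p = 0.000952) with MI-2-2, the smallest adjusted p of any member in both comparisons.

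The other class 4 ligands moved less. Sema4c had 31.5 and 29.4 CPM with EPZ5676, 37.1 and 26.7 CPM with MI-2-2, and 12.3 and 11.3 CPM with MM-401, and rose by 1.37 and 1.43 on the log2 scale (adjusted p = 0.0150 and 0.0119). Its DMSO libraries had 13.9 and 7 CPM and its iBET libraries 8.44 and 6.51 CPM, all under the EPZ5676 and MI-2-2 values. Sema4a, already the leading semaphorin, had 438 and 464 CPM with EPZ5676, 482 and 486 CPM with MI-2-2, 305 and 334 CPM with MM-401, 243 and 274 CPM with DMSO, and 209 and 190 CPM with iBET. No group overlapped another, and Sema4a rose against MM-401 by 0.50 ± 0.12 with EPZ5676 (adjusted p = 0.0162) and by 0.60 ± 0.12 with MI-2-2 (adjusted p = 0.00769). Sema4b had 29.0 and 19.2 CPM with EPZ5676, 34.6 and 30.5 CPM with MI-2-2, 20.8 and 22.7 CPM with MM-401, 18.7 and 15.1 CPM with DMSO, and 30.7 and 34.2 CPM with iBET. Its log2 difference from MM-401 was 0.14 and 0.58 and passed in neither comparison (adjusted p = 0.637 and 0.0714). Sema4g stayed at or under 0.719 CPM in each library and passed in none of the 6 tested comparisons.

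Outside class 4, the secreted Sema3g was scarce, with 12 and 31 reads with EPZ5676, 13 and 13 with MI-2-2, 6 and 3 with MM-401, 4 and 2 with DMSO, and 6 and 3 with iBET. It rose with EPZ5676 (2.40 ± 0.66, adjusted p = 0.0274), while with MI-2-2 the difference was 1.42 ± 0.68 (adjusted p = 0.136). Without EPZ5676 replicate 2 the Sema3g difference was 1.59 (adjusted p = 0.191). Sema6b, a transmembrane ligand of plexin A receptors, was the only member that fell against MM-401. It had 29.2 and 24.3 CPM with EPZ5676, 35.8 and 27.0 CPM with MI-2-2, 49.7 and 39.0 CPM with MM-401, 54.7 and 38.6 CPM with DMSO, and 19.4 and 23.2 CPM with iBET. Against MM-401 it fell with EPZ5676 (−0.73 ± 0.23, adjusted p = 0.0457), and with MI-2-2 the difference was −0.50 ± 0.23 (adjusted p = 0.127). Sema6c lay between 0.377 and 1.81 CPM and passed in no tested comparison.

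**Figure D2:**
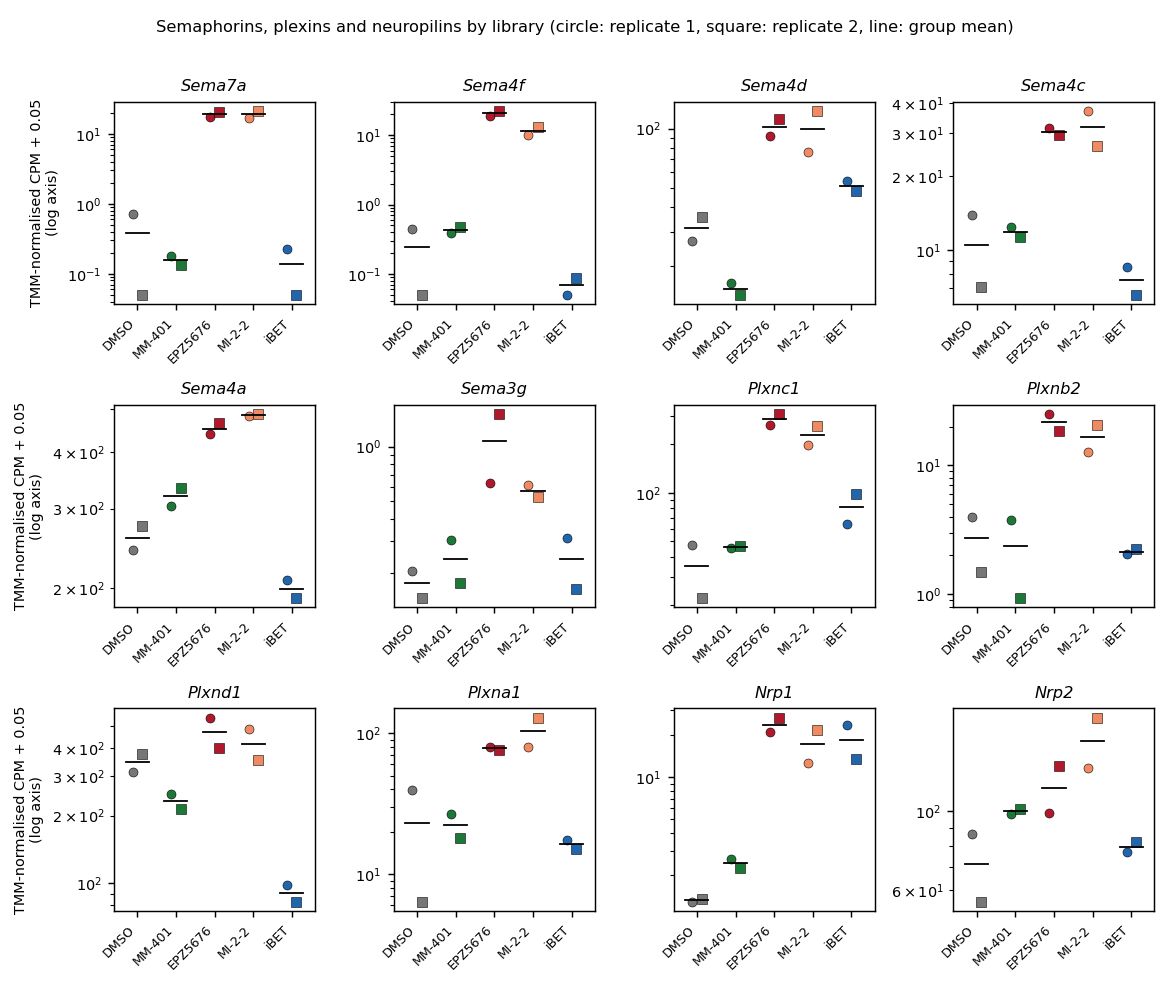
TMM-normalised CPM of 12 members, with 0.05 CPM added and on a log axis, in the 5 conditions (circle, replicate 1; square, replicate 2; line, arithmetic mean of both). Before this addition, Sema7a and Sema4f are at most 0.662 and 0.420 CPM, respectively, in DMSO, MM-401 and iBET. They lie near 20 and 10 to 22 CPM, respectively, in EPZ5676 and MI-2-2, whereas Nrp1 is also high with iBET.

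On the receptor side, Plxnc1 and Plxnb2 rose most. Plxnc1 had 263 and 308 CPM with EPZ5676, 197 and 258 CPM with MI-2-2, 45.2 and 46.9 CPM with MM-401, 47.6 and 22.1 CPM with DMSO, and 63.9 and 98.9 CPM with iBET, so that all EPZ5676 and MI-2-2 libraries exceeded all others. Against MM-401 the rise was 2.63 ± 0.36 (SE, log2; adjusted p = 0.00235) with EPZ5676 and 2.31 ± 0.36 (adjusted p = 0.00329) with MI-2-2. Plxnb2, a receptor of Sema4c and Sema4d, had 24.9 and 18.4 CPM with EPZ5676, 12.7 and 20.5 CPM with MI-2-2, 3.72 and 0.882 CPM with MM-401, 3.89 and 1.44 CPM with DMSO, and 1.99 and 2.18 CPM with iBET. Both treatments were again above every other library, and Plxnb2 rose by 3.23 ± 0.68 (adjusted p = 0.0102) and 2.85 ± 0.68 (adjusted p = 0.0145). These values were 4.61 and 4.23 without MM-401 replicate 1 and 2.54 and 2.16 without MM-401 replicate 2, the last with an adjusted p of 0.0668.

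Plxnd1, the most abundant plexin, had 546 and 399 CPM with EPZ5676, 484 and 352 CPM with MI-2-2, 249 and 214 CPM with MM-401, 313 and 377 CPM with DMSO, and 98.3 and 82.8 CPM with iBET. It rose against MM-401 by 1.03 ± 0.22 (adjusted p = 0.0102) with EPZ5676 and by 0.85 ± 0.22 (adjusted p = 0.0189) with MI-2-2. Plxna1, a partner of neuropilins in the response to class 3 semaphorins, had 80.2 and 76.1 CPM with EPZ5676, 79.1 and 129 CPM with MI-2-2, and 26.6 and 18.1 CPM with MM-401. The call passed with MI-2-2 (2.22 ± 0.68, adjusted p = 0.0375), and the difference with EPZ5676 was 1.81 ± 0.68 (adjusted p = 0.0730). Its DMSO libraries differed widely, at 39.6 and 6.33 CPM, and iBET had 17.5 and 15.1 CPM. Plxnb3 had 43.2 and 41.1 CPM with EPZ5676, 44.2 and 36.7 CPM with MI-2-2, and 14.6 and 12.4 CPM with MM-401, and passed in neither comparison (log2 difference 1.64 and 1.58, adjusted p = 0.0793 and 0.0843), but passed in both without either DMSO library. Plxna3 had 1.5 and 0.894 CPM with EPZ5676, 1.65 and 1.61 CPM with MI-2-2, and 2.49 and 1.39 CPM with MM-401, and Plxna2 lay between 0.842 and 4.68 CPM over the 10 libraries. Neither passed against MM-401.

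Nrp1 was low in DMSO and MM-401 and high in the other 3 conditions. It had 1.25 and 1.29 CPM with DMSO, 2.58 and 2.18 CPM with MM-401, 20.8 and 26.6 CPM with EPZ5676, 12.6 and 21.7 CPM with MI-2-2, and 23.5 and 13.5 CPM with iBET. The 6 high libraries overlapped among conditions, and the lowest of them was above each of the 4 low libraries. Nrp1 rose against MM-401 9.92-fold with EPZ5676 (log2 fold change 3.31 ± 0.37, adjusted p = 0.00137) and 7.20-fold with MI-2-2 (2.85 ± 0.37, adjusted p = 0.00194). Under the 18 alternative settings the log2 fold change stayed between 3.13 and 3.48 with EPZ5676 and between 2.41 and 3.19 with MI-2-2, with adjusted p of at most 0.0195 and 0.0256. Nrp1 is also known from endothelium and regulatory T cells. Of the endothelial list, Kdr had 20 and 43 reads with EPZ5676, 10 and 9 with MI-2-2 and at most 1 in each other library. Pecam1 went the other way, with 25.0 and 44.7 CPM in DMSO, 27.6 and 20.9 CPM in MM-401, 6.00 to 12.3 CPM in EPZ5676 and MI-2-2, and 7.09 and 9.05 CPM in iBET. Tie1 had 57 reads in DMSO replicate 2 and at most 6 in each other library. Cdh5, Tek and Esam had at most 0.0981 CPM and Emcn 0 reads. Of the T cell list, Cd3d had 0.799 to 1.87 CPM with EPZ5676 and MI-2-2 and at most 0.265 CPM elsewhere, and Cd3e had 0 reads. Their part in the Nrp1 values was not tested. Nrp2 was abundant in each condition, with 99.2 and 134 CPM with EPZ5676, 132 and 183 CPM with MI-2-2, 98.2 and 102 CPM with MM-401, 86.6 and 55.8 CPM with DMSO, and 76.6 and 81.9 CPM with iBET. Its log2 difference from MM-401 was 0.22 ± 0.24 with EPZ5676 (adjusted p = 0.509) and 0.66 ± 0.24 with MI-2-2 (adjusted p = 0.0681).

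**Figure D3:**
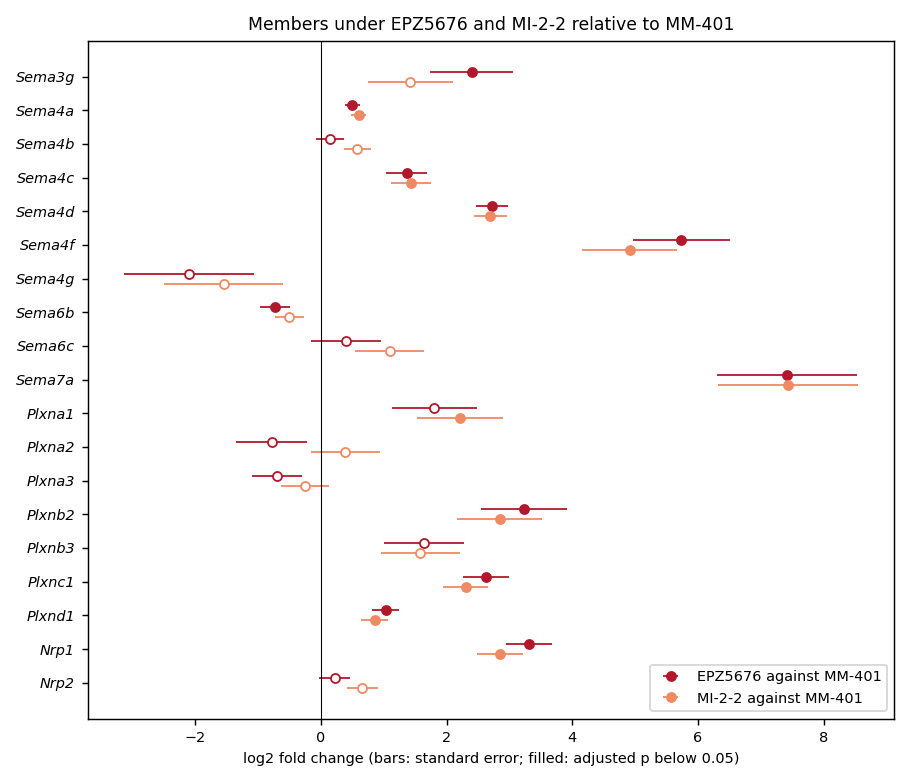
Log2 fold changes of the 19 tested members with EPZ5676 (dark red) and MI-2-2 (orange) relative to MM-401, with bars of 1 standard error; filled points have an adjusted p below 0.05. Sema7a, Sema4f and Nrp1 lie farthest to the right among filled points in the EPZ5676 comparison, and Sema6b is its only filled point left of 0.

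Some of these calls rested on single libraries. Without MM-401 replicate 1 or without MM-401 replicate 2, 6 of the 11 EPZ5676 calls remained, and those of Plxnd1, Sema3g, Sema4a, Sema4c and Sema6b were lost. Without EPZ5676 replicate 2, 7 remained (Sema3g, Sema4a, Sema4c and Sema6b lost), without EPZ5676 replicate 1, 8 remained (Plxnd1, Sema4c and Sema6b lost), and without either MI-2-2 library Sema3g was lost as well as Sema6b. Without MM-401 replicate 1, 6 of the 10 MI-2-2 calls remained (Plxna1, Plxnd1, Sema4a and Sema4c lost), as they did without MM-401 replicate 2 (Plxna1, Plxnb2, Plxnd1 and Sema4c lost), with 7 without MI-2-2 replicate 1 (Plxna1, Plxnd1 and Sema4c lost) and 8 without MI-2-2 replicate 2 (Plxna1 and Plxnb2 lost). The EPZ5676 call of Sema6b and the MI-2-2 call of Plxna1 were each lost without any 1 of the 8 libraries outside DMSO, whereas Sema7a, Sema4f, Sema4d, Plxnc1 and Nrp1 passed under all 18 alternatives. Other calls were gained. With DESeq2, Plxna1 and Plxnb3 also passed with EPZ5676, and Nrp2, Plxnb3 and Sema4b with MI-2-2. The same members were gained with the compared groups fitted alone, and Sema4g with MI-2-2 as well. When either DMSO library was left out of the joint fit, the members gained were those gained with DESeq2. DMSO replicate 2 is the library that stood apart. A larger share of all genes also passed in these fits, as given below beside the pathway list. Scaling by total counts moved the median log2 fold change of all genes to −0.13 with EPZ5676 and −0.11 with MI-2-2 and the share of called genes that were higher from 50.3% to 35.5% and from 50.6% to 37.8%, but turned the direction of no member.

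Against DMSO, 12 of the 19 members passed with EPZ5676, 10 rising and 2 falling, where 38.1% of all genes passed, 18.7% rising and 19.4% falling. With MI-2-2, 12 members rose, and 0 fell, where 41.4% of all genes passed, 20.2% rising and 21.2% falling. The median log2 fold change of members was 1.54 and 1.61, that of all genes −0.06 and −0.05. Without the DMSO library that stood apart, 13 members passed with EPZ5676 (11 rising and 2 falling) and 14 with MI-2-2 (12 rising and 2 falling), where 35.5% and 37.6% of all genes passed. Both lists kept all 12 of the calls above, and Plxna1 was gained as a rise with EPZ5676 and Plxna3 and Sema6b as falls with MI-2-2. Scaling by total counts lowered the share of called genes that were higher from 49.2% to 34.7% with EPZ5676 and from 48.9% to 37.1% with MI-2-2, and the median of all genes to −0.23 and −0.20, with no member changing direction.

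Nrp1 had log2 fold changes of 4.22 ± 0.39 (adjusted p = 0.000591) with EPZ5676 and 3.75 ± 0.39 (adjusted p = 0.000684) with MI-2-2 against DMSO, comparisons that share the DMSO libraries by which it was chosen. Plxnc1 rose by 3.03 and 2.71, Plxnb2 by 3.01 and 2.63, Sema4d by 1.70 and 1.67, Sema4c by 1.54 and 1.61, and Sema4a by 0.80 and 0.90 with EPZ5676 and MI-2-2, respectively (largest adjusted p = 0.0160, for Plxnb2 with MI-2-2). Sema7a and Sema4f rose as well, but DMSO replicate 1 held all of their DMSO reads, 17 of Sema7a and 10 of Sema4f. Without DMSO replicate 2 the log2 fold changes with EPZ5676 and MI-2-2 were 4.85 and 4.87 for Sema7a and 5.72 and 4.91 for Sema4f (5.73, 5.74, 6.59 and 5.76 with both DMSO libraries). Plxnb3 rose by 2.45 and 2.39 (adjusted p = 0.0210 and 0.0208), and its DMSO libraries had 13.2 and 2.06 CPM. The rises of Plxnb3 were 1.70 and 1.64 without DMSO replicate 2 and 4.35 and 4.29 without DMSO replicate 1. Without DMSO replicate 1, Plxnc1 had 3.69 and 3.37 and Plxnb2 had 3.91 and 3.53. With both DMSO libraries, Sema3g passed with EPZ5676 and not with MI-2-2 as a rise (2.95, adjusted p = 0.0135), likewise Plxna3 and Sema6b as falls (−1.47 and −0.80, adjusted p = 0.0214 and 0.0293), while Plxna3 had 3.89 and 2.73 CPM in DMSO. With MI-2-2 and not with EPZ5676, Nrp2 (1.15, adjusted p = 0.00834), Sema4b (0.94, adjusted p = 0.0113) and Plxna1 (2.17, adjusted p = 0.0352) passed. The Plxna1 rise with MI-2-2 was 1.43 without DMSO replicate 2 and 4.04 without DMSO replicate 1, and without DMSO replicate 2 Plxna1 also passed with EPZ5676 (1.01, adjusted p = 0.0438) and Plxna3 and Sema6b with MI-2-2 (−1.22 and −0.77, adjusted p = 0.0475 and 0.0357). None of these 6 genes passed in the direct comparison of EPZ5676 with MI-2-2. Plxnd1, in contrast to its difference from MM-401, did not pass against DMSO (0.45 and 0.28, adjusted p = 0.134 and 0.334).

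Fitted on the compared groups alone, 6 members passed with EPZ5676 and 3 with MI-2-2. The share of all genes under these fits is not given here, and nothing is read from these counts. Without EPZ5676 replicate 2, the calls of Plxna3, Plxnb3, Sema3g and Sema6b were lost (9 members passed), those of Plxnb3 and Sema6b without EPZ5676 replicate 1 (10 passed) and that of Sema6b without DMSO replicate 1 (13 passed). In the MI-2-2 comparison, Plxna1, Plxnb3 and Sema4b were lost without MI-2-2 replicate 1 (9 passed), Nrp2, Plxna1, Plxnb2 and Plxnb3 without MI-2-2 replicate 2 (8 passed), and Plxna1 without any 1 library of MM-401, EPZ5676 or iBET (11 passed).

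EPZ5676 and MI-2-2 were also compared directly. None of the 19 members passed in this edgeR test, against 0.0154% of all genes. No member had an unadjusted p below 0.05, although 937 of all genes did, and DESeq2 called 0 members. The differences, EPZ5676 minus MI-2-2 on the log2 scale, ran from −1.17 for Plxna2 (95% interval −2.46 to 0.13) to 0.97 for Sema3g (−0.40 to 2.35). They were −0.01 for Sema7a (−1.71 to 1.69), 0.46 for Nrp1 (−0.30 to 1.23), 0.33 for Plxnc1 (−0.46 to 1.12), 0.03 for Sema4d (−0.52 to 0.58) and 0.82 for Sema4f (−0.54 to 2.19). The narrowest interval was that of Sema4a, −0.10 (−0.38 to 0.18). The intervals of 12 of the 19 members, Nrp1 and Plxnc1 among them, reached past 1 log2 unit in a direction.

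**Figure D4:**
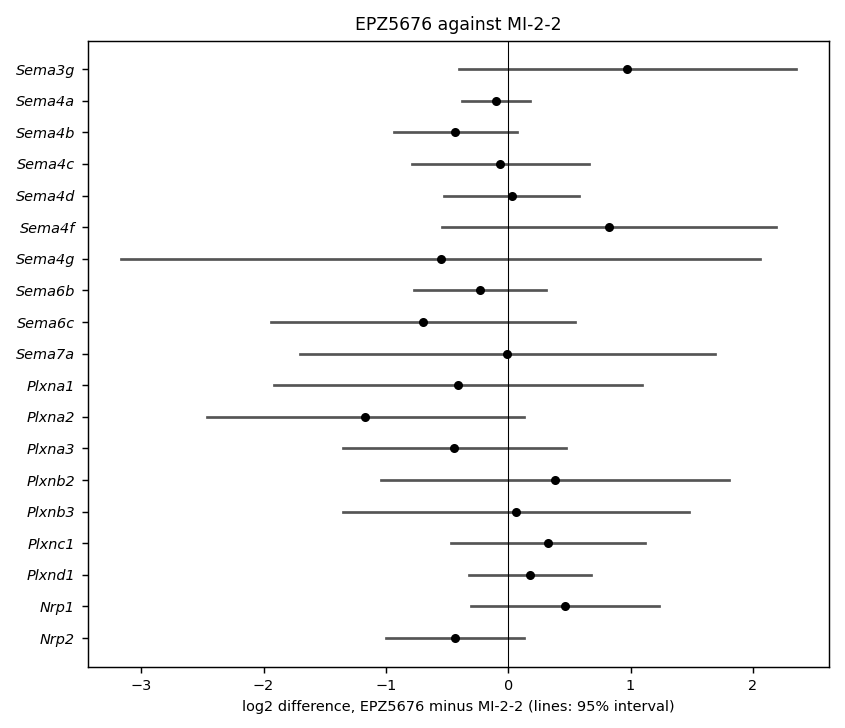
Log2 difference between EPZ5676 and MI-2-2 for the 19 tested members (point) with its 95% interval (line), where values right of 0 are higher with EPZ5676. Each interval includes 0, and the intervals range in width from that of Sema4a (−0.38 to 0.18) to that of Sema4g (−3.16 to 2.06).

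MM-401 was compared with DMSO to ask what blocking the binding of MLL1 to WDR5 did to the family. None of the 19 members passed in the edgeR test, and neither did any other gene (0% of all genes). At an unadjusted p below 0.05 there were 4 members, Sema4d, Plxnd1, Sema4a and Nrp1, and 1450 of all genes, and DESeq2 called 1 member, Sema4d. Sema4d was lower with MM-401 (log2 difference −1.02 ± 0.25, edgeR adjusted p = 0.292, DESeq2 adjusted p = 0.0173), and its edgeR adjusted p ran from 0.0326, without DMSO replicate 1, to 1, without MM-401 replicate 2. Plxnd1 had a difference of −0.58 ± 0.22, Sema4a of 0.30 ± 0.12 and Nrp1 of 0.90 ± 0.38 (adjusted p = 0.382, 0.408 and 0.445). Without DMSO replicate 1, 4 members passed (Plxna1, Plxnb3, Sema4d and Sema4f), where 10.2% of all genes passed, and without DMSO replicate 2, the library that stood apart, 0 passed.

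With iBET, Nrp1 and Plxna3 were higher and Plxnd1 and Sema6b lower than in both control libraries. As iBET was used to choose the family, the differences of its members are described here without p-values. Against DMSO, 5 members were past the threshold that 13.9% of all genes passed, and against MM-401, 6 were past the threshold that 11.4% of all genes passed, and nothing is read from these counts. The log2 difference of Nrp1 was 3.86 ± 0.39 (SE) from DMSO and 2.95 ± 0.37 from MM-401. Plxna3, a receptor that pairs with neuropilins, had 13.3 and 12.1 CPM with iBET, above all other libraries (0.894 to 3.89 CPM), with a difference of 1.94 ± 0.38 from DMSO and 2.71 ± 0.39 from MM-401.

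Plxnd1 was at 98.3 and 82.8 CPM with iBET, under all other libraries (214 to 546 CPM), and differed by −1.93 ± 0.22 from DMSO and −1.35 ± 0.22 from MM-401. Sema6b differed by −1.13 ± 0.24 and −1.06 ± 0.24, and Sema4b by 0.94 ± 0.22 from DMSO. Relative to MM-401, Sema4d was higher by 1.73 ± 0.25 and Sema4a lower (−0.68 ± 0.12). The iBET differences given so far are those of members past the threshold in the comparison named. Among members not past it, Plxnc1 differed by 1.22 ± 0.35 and Plxna2 by −1.27 ± 0.58 from DMSO, for example, both without overlap. Plxnb3 was at 2.17 and 2.49 CPM, close to DMSO replicate 2 (2.06 CPM) and under DMSO replicate 1 (13.2 CPM) and MM-401 (14.6 and 12.4 CPM). Plxna3 and Plxnb3 both lie on chromosome X, with their promoter windows 572 kb apart in GRCm38.p6, and the former was highest and the latter low with iBET. Sema4f had 1 read with iBET against 18 with MM-401. Sema3f, which did not pass the filter and reached 10 reads only through iBET, had 6 and 7 reads with iBET and at most 2 in each other library.

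**Figure D5:**
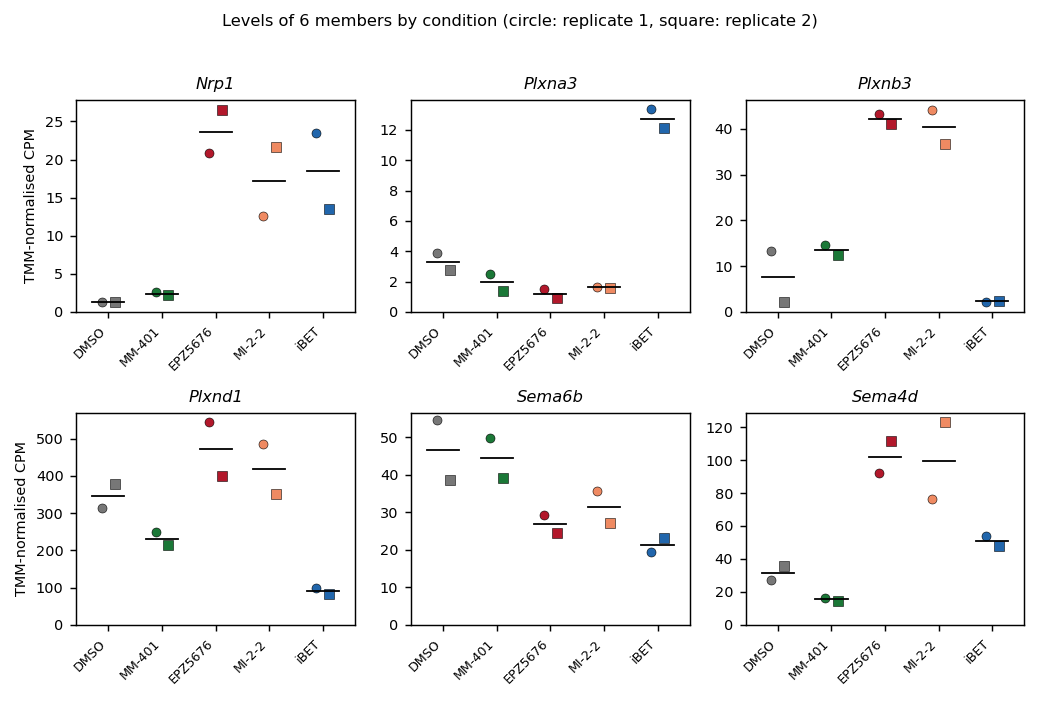
TMM-normalised CPM, on linear axes from 0, of 6 members in the 5 conditions (circle, replicate 1; square, replicate 2; line, mean). Nrp1 and Plxna3 are high with iBET (13.5 and 23.5 CPM, 12.1 and 13.3 CPM), Plxnd1 has its lowest libraries there (82.8 and 98.3 CPM), and Plxnb3 is at 2.17 and 2.49 CPM with iBET against 36.7 to 44.2 CPM in EPZ5676 and MI-2-2.

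Other genes of the pathway came from a list of 56 coreceptors, neuropilin ligands, alternative semaphorin receptors and cytoplasmic effectors, of which 46 were tested. Against MM-401, 12 rose and 3 fell with EPZ5676, and 14 rose and 2 fell with MI-2-2 (33.3% and 35.7% of all genes passed), with a median log2 fold change of 0.38 and 0.36. Kdr, for example, passed the filter on low counts only through its EPZ5676 libraries (20 and 43 reads). It could thus enter the EPZ5676 counts, here and against DMSO, only as higher. Without DMSO replicate 1 in the joint fit, 23 of 48 passed with EPZ5676 and 25 with MI-2-2 (47% and 48.9% of all genes), and without DMSO replicate 2, 23 of 47 and 27 (46.9% and 48.8% of all genes). Mical1, an oxidoreductase that takes apart actin filaments downstream of plexin A, rose by 1.13 ± 0.10 (adjusted p = 0.000722) and 1.05 ± 0.10 (adjusted p = 0.000996). Arhgap35, or p190RhoGAP, which switches off RhoA, fell with EPZ5676 (−1.14 ± 0.15, adjusted p = 0.00222) and with MI-2-2 (−0.92 ± 0.15, adjusted p = 0.00418). Pgf, a VEGF family ligand of neuropilins, rose with EPZ5676 (3.35 ± 0.47, adjusted p = 0.00243) and with MI-2-2 (2.92 ± 0.46, adjusted p = 0.00352). The adhesion molecule L1cam, a neuropilin partner, rose with MI-2-2 (2.66 ± 0.38, adjusted p = 0.00249) and with EPZ5676 (2.66 ± 0.38, adjusted p = 0.00261). Flt1, a VEGF receptor, fell with MI-2-2 (−2.46 ± 0.36, adjusted p = 0.00255), while its difference with EPZ5676 was −0.27 ± 0.33 (adjusted p = 0.566). Against DMSO, 14 rose and 3 fell with EPZ5676 and 16 rose and 2 fell with MI-2-2, of 46 genes, where 38.1% and 41.4% of all genes passed. None passed for MM-401 against DMSO or EPZ5676 against MI-2-2, where 0% and 0.0154% of all genes passed. At an unadjusted edgeR p below 0.05 there were 7 and 6 of the list and 1450 and 937 of all genes. For iBET, 5 were past the threshold against each of DMSO and MM-401, as were 13.9% and 11.4% of all genes, and nothing is read from these counts.

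The remaining members were scarce. Sema3b had 23 reads over the 10 libraries, Sema3f 20 and Plxnb1 13, and none of these passed the filter on low counts. Sema3b had 11 reads with MI-2-2 and 3 with MM-401 (ratio 3.16, 95% interval 0.834 to 17.6), and Plxnb1 6 with EPZ5676 and 2 with MM-401 (3.07, 0.550 to 31.1), so that both intervals include 1. Plxnb1 had 0 reads in DMSO, and the lower end of the interval for EPZ5676 against DMSO was 1.16. Plxnb1 reached 10 reads only through its EPZ5676 and MI-2-2 libraries, and the DMSO group holds the library that stood apart. Nothing is therefore read from this interval. Another 10 members had fewer than 10 reads, namely Sema3a, Sema3c, Sema3d, Sema3e, Sema5a, Sema5b, Sema6a, Sema6d, Plxna4 and the antisense gene Plxna4os1. The nearest to the limit was Sema5a with 7 reads, and Sema3e and Sema5b had none. Of the 7 class 3 semaphorins, the secreted ligands, only Sema3g was thus abundant enough to test.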

How the data were processed

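RNA from MAF9 cells (TruSeq libraries) was measured in 10 libraries, 2 for each of 5 conditions, grouped by their labels. The authors deposited read counts per gene for 24015 genes, without normalization. The submitters' processing notes name TopHat2, Subread, DESeq and the mm9 build, with no version, setting or order. Reads shared between related or overlapping genes are as the authors counted them, and strand use is not stated.

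All genes were fitted together with glmQLFit and glmQLFTest of edgeR 4.0.16 (R 4.3.3), after filterByExpr and TMM scaling, with 1 coefficient for each condition. The filter kept 12971 genes, and p-values were adjusted over these within each comparison (Benjamini-Hochberg, threshold 0.05). Standard errors are the log2 fold change divided by the square root of F. RPKM used exon lengths from GENCODE M21, another annotation than that of the counts. Ratios of few reads have exact binomial 95% intervals, which cover counting error only. Total counts of 20394762 to 29473127 make 1 read worth 0.0339 to 0.0490 CPM. Scripts were tested on simulated data. Promoter sequences are from RefSeq (GRCm38.p6), which held 26 of the 32 members.

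Alternatives were DESeq2 1.42.0 (its test or its size factors), total-count scaling, 3 other filters on low counts, a replicate block, a fit of the compared groups alone and leaving out each library. Coding length was added after the data were seen. The members, the pathway list and the marker lists were chosen with earlier results of these data known. The text names all members, gives each library's value for those that passed in at least 1 of the 6 tested comparisons, and names the 3 pathway genes with the smallest adjusted p against MM-401 for EPZ5676 and for MI-2-2.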

Additional observations from a re-analysis of the deposited data

How the results depend on the processing

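No called member changed direction under any alternative. Counts of members that passed moved by more than 1.5 times as follows. With the compared groups fitted alone, 6 members passed for EPZ5676 against DMSO (12 in the joint fit), 3 for MI-2-2 against DMSO (12), 0 for iBET against DMSO (5) and 13 for iBET against MM-401 (6). With DESeq2, 1 passed for MM-401 against DMSO (0) and 8 for iBET against DMSO (5). Leaving out 1 library at a time gave 9 to 13 for EPZ5676 and 8 to 14 for MI-2-2 against DMSO, 0 to 4 for MM-401 and 1 to 10 for iBET against DMSO, 6 to 13 for EPZ5676 and 6 to 13 for MI-2-2 against MM-401, 0 to 10 for iBET against MM-401 and 0 for EPZ5676 against MI-2-2. Where this left a group with 1 library, that library was assumed to vary like the other groups. The cause of these moves was not tested, apart from the fewer libraries that such fits hold. Except for fits without a DMSO library, no share of all genes is set beside the counts under alternatives, and nothing is read from them.

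Libraries of different conditions share replicate numbers, but nothing states that a number marks a shared culture or day. Deviations from the group means correlated with r = 0.278 to 0.666 between conditions, with 2 pairs in each comparison. With a replicate block, 13 members passed for EPZ5676 and 14 for MI-2-2 against DMSO, 12 (Plxnb3 gained) and 10 against MM-401, 0 for MM-401 against DMSO, 0 for EPZ5676 against MI-2-2, and 6 and 7 for iBET against DMSO and MM-401. Of 1042 repeats of single calls of members named in the text, 930 kept their side of the threshold and 112 lost it, in the same direction. The pathway list moved to 23 genes for EPZ5676 against MM-401 (15 without the block), 12 for iBET against DMSO (5) and 11 for iBET against MM-401 (5) under the block. The share of all genes under the block is not given here, and nothing is read from the counts under it. Members with few reads (Sema7a and Sema4f outside EPZ5676 and MI-2-2, Sema3g and Sema4g) had the widest errors, and a pair of libraries a condition limits all comparisons.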
